A study of Mus musculus with 10 samples.

Results

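The chemokine ligand Cxcl12 and its receptors Cxcr4 and Ackr3 are 3 of the 52227 genes in the count table of mouse cortical hem (CH), and were taken by their symbols. All 3 had counts in every library and were among the 21664 genes tested, those reaching 10 counts in 3 libraries or more. The study asked how the transcription factor Lmx1a shapes the CH, a signaling center of the medial telencephalon. CH was cut out by laser capture microdissection from 5 wild-type and 5 Lmx1a-/- embryos at embryonic day 13.5 (e13.5), and RNA was sequenced with 1 library per embryo, for which CH pieces from several sections of that embryo were pooled. The mutants carried the dreher allele drJ of Lmx1a, wild-type embryos served as controls, and both came from a mixed C57Bl6, FVB and CD1 background. Neighboring sections stained for Lmx1a protein set the borders of the captured region, and no library received a treatment. The captured tissue holds progenitors, newborn neurons and whatever covering tissue and vessels lay within the border, so fewer cells of a type and less RNA per cell cannot be told apart in these libraries.

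Cxcl12 is a secreted chemokine that attracts cells bearing Cxcr4, a G protein-coupled receptor that signals through inhibitory G proteins to small GTPases and to kinases such as Src and Akt. Ackr3 is an atypical receptor that binds the same ligand, couples to arrestins rather than to G proteins, and takes up the ligand and so lowers or shapes its gradient. In the embryonic cortex, Cxcl12 is known as a product of the meninges, the covering membranes of the brain, while Cajal-Retzius (CR) cells, which leave the CH and spread beneath the pial surface, and tangentially migrating interneurons carry the receptors.

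The 250 bases before each gene's RefSeq start are shown because their letters are what a reader would search for sites of Lmx1a, a homeodomain protein, and they frame the levels given next. Sequences are from RefSeq on GRCm38.p6, read 5′ to 3′ on the gene's own strand, and all 3 genes were matched. The stretches lie at chr6:117168285-117168534 on the plus strand for Cxcl12, chr1:128592300-128592549 on the minus strand for Cxcr4 and chr1:90203730-90203979 on the plus strand for Ackr3. Capitals mark matches, on either strand, to TATAAA (the TATA box), ATTA (the homeodomain core), TAATTA (the palindromic homeodomain site) and GGGCGG (the GC box).
Cxcl12: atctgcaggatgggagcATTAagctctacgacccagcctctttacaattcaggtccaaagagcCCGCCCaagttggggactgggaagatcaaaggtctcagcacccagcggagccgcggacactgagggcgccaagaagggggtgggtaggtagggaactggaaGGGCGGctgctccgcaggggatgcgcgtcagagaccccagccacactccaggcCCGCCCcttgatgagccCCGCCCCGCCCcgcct
Cxcr4: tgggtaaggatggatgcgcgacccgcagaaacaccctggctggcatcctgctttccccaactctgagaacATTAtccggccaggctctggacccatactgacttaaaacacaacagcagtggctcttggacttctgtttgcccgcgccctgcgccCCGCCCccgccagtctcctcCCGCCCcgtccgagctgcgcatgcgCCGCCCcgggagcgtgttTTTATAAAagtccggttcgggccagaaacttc
Ackr3: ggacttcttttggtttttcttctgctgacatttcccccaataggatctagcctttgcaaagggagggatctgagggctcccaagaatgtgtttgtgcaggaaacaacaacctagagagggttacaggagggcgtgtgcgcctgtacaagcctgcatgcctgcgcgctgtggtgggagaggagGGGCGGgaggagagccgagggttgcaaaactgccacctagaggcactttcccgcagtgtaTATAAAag

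The stretch before Cxcl12 held 5 GC boxes, the last pair overlapping, 1 ATTA and 0 TATA boxes, and 64.4% of its bases were G or C. The stretch before Cxcr4 held 3 GC boxes, 1 ATTA and 2 TATAAA matches that overlap each other on opposite strands, the nearer one beginning 30 bases before the start, with 61.2% G or C. The stretch before Ackr3 held 1 GC box and 1 TATAAA beginning 8 bases before the start, with 0 ATTA and 54% G or C. None of the 3 held TAATTA. Among 32851 RefSeq mouse stretches of the same length, 12.4% held TATAAA, 54.9% ATTA, 4.84% TAATTA and 32.7% GGGCGG, and the median G and C content was 52.4%. Motif matches are a description of letters and say nothing of binding.

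Library totals lay between 19145952 and 36462780 counts, of which 20.56% to 27.63% fell on mitochondrial genes. Lmx1a transcript itself was higher in Lmx1a-/- CH (114 ± 21 against 71.2 ± 18.2 normalized CPM, SD, n = 5 each; log2 fold change 0.68, edgeR FDR 0.0658), and since drJ is a point mutation that leaves the transcript in place, the count does not test the genotype. Xist stood at 4399 to 5169 normalized CPM in wild-type embryos 2 to 5, and at 0.163 to 1.15 in wild-type embryo 1 and all 5 mutants, where 4 Y-linked genes summed to 341 to 451. Sex and genotype therefore cannot be told apart except through wild-type embryo 1. Genes past the threshold, an FDR under 0.1 in edgeR's quasi-likelihood test, numbered 870, or 4.02% of those tested, with 497 (2.29%) lower and 373 (1.72%) higher in Lmx1a-/- CH. Normalized CPM is CPM, the share of a library's counts scaled up to a fixed total, after scaling by the trimmed mean of M values (TMM).

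None of the 3 genes passed the threshold in Lmx1a-/- CH, and the estimates of all 3 were below 0. The log2 fold change was -0.46 for Ackr3, -0.28 for Cxcr4 and -0.27 for Cxcl12, and their order was not the same in all settings. At an unadjusted p under 0.05, Ackr3 was the 1 of 3 that passed, where 16.4% of all genes tested passed. DESeq2, limma-voom and the likelihood ratio test also called 0 of the 3. No gene of the 3 separated the genotypes without overlap, which 4.44% of the tested genes did, and a mean below wild-type was shared by 50.6% of tested genes.

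Cxcl12, the ligand (ENSMUSG00000061353, chr6:117168535-117181367, plus strand), was the most variable of the 3 between embryos. In wild-type embryos 1 to 5 it stood at 25.5, 11, 49.8, 29.6 and 19.8 normalized CPM, and in Lmx1a-/- embryos 1 to 5 at 35.2, 7.77, 28.9, 11.8 and 28.5. Wild-type embryo 3 was the highest and Lmx1a-/- embryo 2 the lowest, and the groups overlapped over most of their ranges, with 2 of 5 mutants below the wild-type mean. The means were 27.1 ± 14.5 and 22.4 ± 11.9 (SD, n = 5 each). The log2 fold change was -0.27 (SE 0.41, 95% interval -1.17 to 0.62, edgeR FDR 0.802), an interval that spans 0.445 to 1.54 times the wild-type level.

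The spread of Cxcl12 was far above the error of counting reads. Its counts were 143 to 1692 per library, for which counting independent reads gives an error of 8.36% at most, while levels ranged 6.4-fold. The libraries were amplified, so that error leaves out noise from before sequencing, which was not measured. The pooled SD of its log2 level within genotypes was 0.87, larger than that of 98.5% of 11549 genes with a mean of at least 5 normalized CPM, whose median was 0.21. The same SD was 0.39 for Cxcr4 and 0.32 for Ackr3, larger than for 86.7% and 77.5% of these genes. Spread within each genotype was alike for the ligand, with a coefficient of variation of 53.3% in wild-type and 53.2% in Lmx1a-/- CH. Without wild-type embryo 3, the Cxcl12 estimate changed sign to 0.064 (edgeR FDR 0.962).

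Cxcr4, the signaling receptor (ENSMUSG00000045382, chr1:128588199-128592293, minus strand), was even among wild-type embryos and uneven among mutants. Wild-type embryos 1 to 5 had 56.8, 71.8, 67.4, 59.2 and 76.4 normalized CPM, and Lmx1a-/- embryos 1 to 5 had 53.8, 53.6, 90.4, 40.1 and 34.6. Thus 4 of 5 mutants lay below the lowest wild-type embryo, and the remaining mutant, embryo 3, lay above every wild-type embryo. The means were 66.3 ± 8.29 and 54.5 ± 21.8 (SD, n = 5 each), with coefficients of variation of 12.5% and 40%. The log2 fold change was -0.28 (SE 0.21, 95% interval -0.73 to 0.17, edgeR FDR 0.547).

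Lmx1a-/- embryo 3 decided the Cxcr4 result: without it the log2 fold change was -0.55 and the gene passed the threshold (edgeR FDR 0.0761), whereas it did not when any other single library was left out. The library has no label that sets it apart, so the value over all 5 mutants is the one reported. Counts of Cxcr4 were 986 to 2655 per library, for which counting independent reads gives an error of 3.18% at most, noise from amplification left out.

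Ackr3, the arrestin-coupled scavenger receptor (ENSMUSG00000044337, chr1:90203980-90216751, plus strand), showed the opposite distribution, even in mutants and uneven in wild-type CH. Levels in wild-type embryos 1 to 5 were 35.7, 24.8, 23.5, 47.6 and 26.3 normalized CPM, and in Lmx1a-/- embryos 1 to 5 they were 21.8, 20.7, 23.1, 26.5 and 22.3. All 5 mutants lay below the wild-type mean and 4 of 5 below the lowest wild-type embryo, but Lmx1a-/- embryo 4 lay among the wild-type values, and wild-type embryos 4 and 1 stood above every mutant. The means were 31.6 ± 10.2 and 22.9 ± 2.21 (SD, n = 5 each), with coefficients of variation of 32.2% and 9.64%. The log2 fold change was -0.46 (SE 0.18, 95% interval -0.85 to -0.077), with an unadjusted p of 0.0222 and an edgeR FDR of 0.21, so the difference did not pass over all genes.

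Without wild-type embryo 4 the Ackr3 estimate shrank to -0.27 (edgeR FDR 0.395). Ackr3 and Cxcr4 lie 77.5 and 39.1 Mb from Lmx1a on the same chromosome, and the genotypes of these regions in the mutants were not tested. Wild-type embryo 1, the wild-type embryo without Xist, had 35.7 normalized CPM of Ackr3, above all 5 mutants. Its Cxcr4 level of 56.8 and Cxcl12 level of 25.5 were within the mutants' ranges. With Xist as a covariate, the log2 fold changes were -0.63 for Ackr3 (edgeR FDR 0.56), -0.042 for Cxcr4 (FDR 0.985) and -0.067 for Cxcl12 (FDR 0.988).

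**Figure D1:**
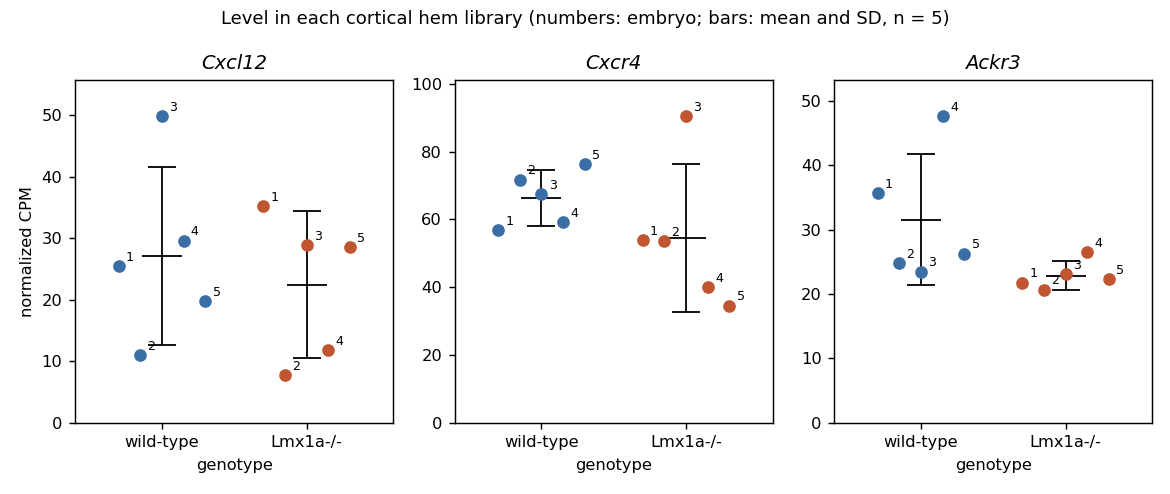
Normalized CPM (TMM-scaled, linear axis from 0) of Cxcl12, Cxcr4 and Ackr3 in each library, with wild-type embryos in blue, Lmx1a-/- embryos in orange, embryo numbers beside the points and bars for the mean and SD (n = 5). Cxcl12 scatters in both genotypes, Cxcr4 scatters among mutants from 34.6 to 90.4, and Ackr3 scatters among wild-type embryos from 23.5 to 47.6.

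Levels of the 3 genes were compared with each other per kilobase of exon. In wild-type CH, Cxcr4 reached 36.7 ± 4.58, Ackr3 9.43 ± 3.04 and Cxcl12 3.32 ± 1.77 normalized CPM per kb (SD, n = 5). The signaling receptor was therefore the most abundant and the ligand the least, and this order held in 10 of 10 libraries. In Lmx1a-/- CH the levels were 30.1 ± 12 for Cxcr4, 6.83 ± 0.659 for Ackr3 and 2.74 ± 1.46 for Cxcl12. The order depends on which exon length is used: with the longest coding transcript wild-type levels were 36.7, 10.3 and 4.82, whereas with the shortest annotated coding transcript they were 73.5 for Cxcr4, 78.2 for Ackr3 and 14.4 for Cxcl12, so the 2 receptors exchanged places and Cxcl12 stayed lowest.

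Ratios within a library compare the ligand with its receptors free of library scaling. The Cxcl12 to Cxcr4 count ratio ranged from 0.153 to 0.739 in wild-type and from 0.145 to 0.823 in Lmx1a-/- CH. The mean log2 ratio was -1.45 ± 0.89 and -1.42 ± 1.00 (SD, n = 5 each), a difference of 0.031 (exact two-sided permutation p = 0.944). Ligand relative to signaling receptor thus differed between embryos by far more than between genotypes.

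The Cxcl12 to Ackr3 ratio ranged from 0.442 to 2.12 in wild-type and from 0.377 to 1.62 in Lmx1a-/- CH, and its mean log2 value differed by 0.092 (exact permutation p = 0.833). The Ackr3 to Cxcr4 ratio, scavenger to signaling receptor, ranged from 0.345 to 0.805 and from 0.256 to 0.661, with a difference of -0.061 (exact permutation p = 0.841). Adjusted over the 3 ratios, each exact permutation p was 0.944, and the smallest p that 5 against 5 libraries allow was 0.00794. Direction was not stable for any ratio when single libraries were left out.

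The members did not vary together from embryo to embryo. After centering on genotype means, Pearson's r over the 10 libraries was 0.06 for Cxcl12 with Cxcr4, 0.08 for Cxcl12 with Ackr3 and -0.30 for Ackr3 with Cxcr4. These 3 values are descriptions, and the libraries share tissue, scaling and dissection.

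Because the ligand is known from the meninges and the receptors from CR cells and interneurons, each gene was set against marker lists of 7 cell types over the 10 libraries, in log2 normalized CPM centered on genotype means. Cxcl12 followed the meningeal list. The mean of its 23 markers, which include the collagens Col1a1, Col1a2 and Col3a1, the proteoglycans Dcn and Lum and the transcription factors Foxc1 and Twist1, gave r = 0.91 with Cxcl12 (exact permutation within genotypes, p = 0.00181, adjusted p = 0.0379 over the 21 relations). Spearman's rank correlation was 0.85 (exact permutation p = 0.00833, adjusted p = 0.175).

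Without the 2 libraries farthest from the median of the meningeal list, Lmx1a-/- embryo 2 and wild-type embryo 3, r was 0.83. It was 0.97 among the 5 wild-type and 0.86 among the 5 Lmx1a-/- libraries, and 0.90 without centering. These lowest and highest libraries of the list were also the lowest and highest libraries of Cxcl12. Summed over the list, meningeal markers stood at 762, 476, 1222, 891 and 623 normalized CPM in wild-type embryos 1 to 5 and at 661, 417, 679, 477 and 649 in Lmx1a-/- embryos 1 to 5.

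By single gene, r with Cxcl12 was highest for Col1a2 (0.93), Col1a1 (0.84) and Col3a1 (0.83), the fibrillar collagens. It was 0.66 for Dcn, 0.64 for Lum and 0.61 for Pdgfra, the receptor of mesenchymal cells. Foxc1, a transcription factor of the list, gave 0.22, and Crabp2 and Tbx18 gave -0.43 and -0.19. The median over the 23 genes was 0.45, with 20 above 0, beside a median of 0.01 over all other genes tested. None of the 23 was at 0 in all libraries.

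Of the meningeal list, 4 of 23 genes fell in Lmx1a-/- CH and 0 rose, beside 2.29% and 1.72% of all genes tested. The 4 were Pdgfra (log2 fold change -0.81), Lum (-1.06), Dcn (-0.76) and Alx4 (-1.21), with edgeR FDR of 0.0388 to 0.0792. The count of 4 was 0 without Lmx1a-/- embryo 4, 1 without wild-type embryo 1 or 4 or Lmx1a-/- embryo 2 or 5, 2 without Lmx1a-/- embryo 1, and 0 with Xist as a covariate. The list's median log2 fold change was -0.37, where that of all genes tested was -0.0049. With the meningeal list as a covariate the Cxcl12 estimate turned to 0.36 (SE 0.23, edgeR FDR 0.531). How much of the Cxcl12 level came from meningeal tissue in the captured region was not tested.

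**Figure D2:**
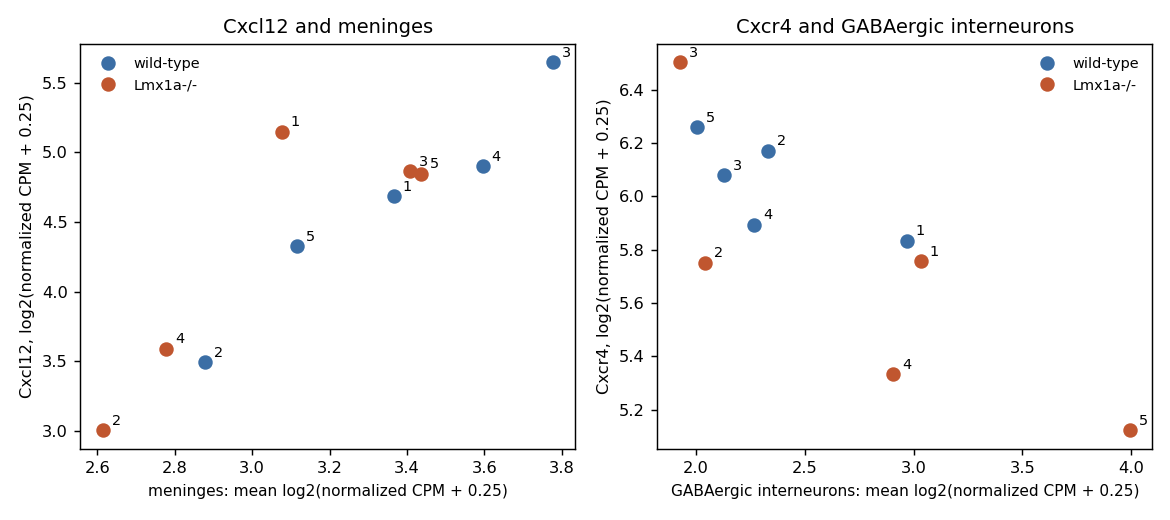
Each point is 1 library: the y axis gives the log2 normalized CPM (plus 0.25) of Cxcl12 or Cxcr4 and the x axis the mean log2 normalized CPM of the meningeal or the GABAergic interneuron list, with wild-type in blue and Lmx1a-/- in orange. Cxcl12 climbs with the meningeal list in both genotypes (r = 0.91 after centering), and Cxcr4 descends with the interneuron list (r = -0.81).

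Cxcr4 did not follow the meningeal list (r = 0.01). Its strongest relation was an inverse one with the 14 markers of GABAergic interneurons, inhibitory neurons of ventral origin (r = -0.81, exact permutation p = 0.0267; Spearman's rank correlation -0.71, exact permutation p = 0.0585), which did not pass over the 21 relations (adjusted p = 0.28 and 0.615). The value was -0.75 among wild-type and -0.82 among Lmx1a-/- libraries, and -0.75 without Lmx1a-/- embryos 5 and 1. Lmx1a-/- embryo 5 had the highest interneuron list mean and the lowest Cxcr4, and Lmx1a-/- embryo 3 the lowest list mean and the highest Cxcr4. Single-gene r ran from -0.87 for Lhx6, a transcription factor of interneurons from the medial ganglionic eminence, to 0.38 for Erbb4, and 1 of 14 was above 0.

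With the CR cell list, Cxcr4 gave r = 0.53 (exact permutation p = 0.146, adjusted p = 0.722; Spearman's rank correlation 0.56, adjusted exact permutation p = 0.755), and r fell to 0.06 without Lmx1a-/- embryos 5 and 4. Those embryos had the lowest Cxcr4, 34.6 and 40.1 normalized CPM, and the lowest CR cell sums, 433 and 394. Lmx1a-/- embryo 3, with the highest Cxcr4, had a CR cell sum of 607, below all wild-type embryos. Over all libraries the sums were 666 to 1006 in wild-type and 394 to 620 in Lmx1a-/- CH and did not overlap. Cdkn1a (means of 214 and 87.9), Reln (199 and 95.8) and Trp73 (82.1 and 45.6) made up much of these sums. The study had reported all of them as lower in these samples, so the separation is not independent evidence.

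In the CR cell list, 5 of 14 tested genes fell, namely Reln (log2 fold change -1.06), the secreted glycoprotein of CR cells, Trp73 (-0.85), Lhx1 (-1.36), Car10 (-1.95) and Cdkn1a (-1.28), and Lhx5 rose (1.86), all with edgeR FDR under the threshold. The study had reported each of these genes as changed in the same direction in these samples, so the count is not independent evidence of direction. The shares over all genes tested were 2.29% lower and 1.72% higher. With the CR cell list as a covariate the Cxcr4 estimate turned to 0.32 (SE 0.34, edgeR FDR 0.911). The list's mean had r = -0.847 with genotype, so little of the contrast was left in that fit, and the part of CR cell number in the Cxcr4 level was not tested.

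Ackr3 had no relation that passed. Its largest were with the intermediate progenitor list (r = -0.65, exact permutation p = 0.161, adjusted p = 0.722), the endothelial list (r = -0.54, exact permutation p = 0.216, adjusted p = 0.756) and the pericyte list (r = -0.52, exact permutation p = 0.172, adjusted p = 0.722). Leaving out the 2 farthest libraries moved these to 0.21, -0.83 and 0.29, so the first and the last changed sign without those libraries. With the CR cell list r was -0.24, and with the interneuron list 0.19.

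**Figure D3:**
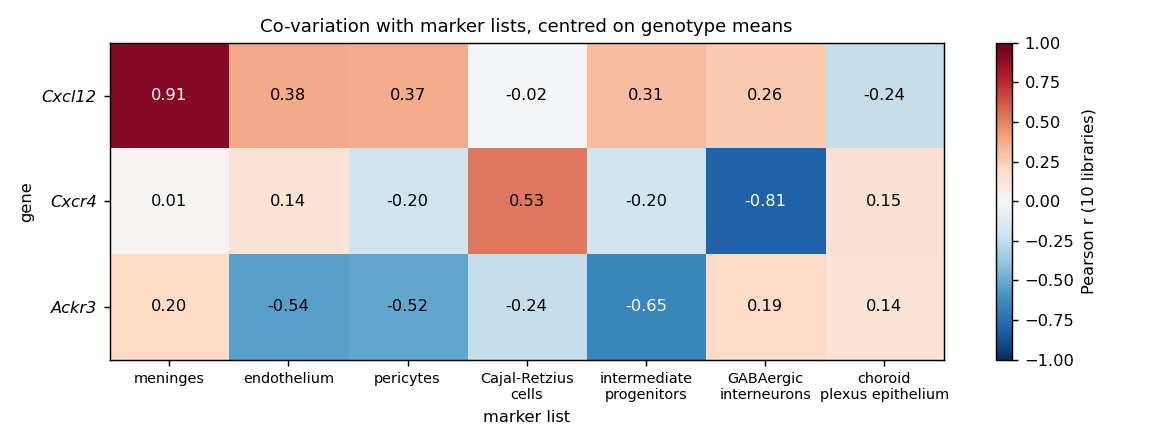
Pearson's r over 10 libraries, centered on genotype means, between each of the 3 genes (rows) and the mean log2 level of 7 marker lists (columns), from blue at -1 to red at 1. Cxcl12 with the meninges (0.91) and Cxcr4 with GABAergic interneurons (-0.81) hold the largest values, and the first is the 1 relation of 21 past an adjusted exact permutation p of 0.05.

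The other marker lists give the cellular background of these levels. Over all 21664 genes tested, 4.02% passed in edgeR and 16.4% had an unadjusted p under 0.05, and DESeq2 called 976 lower and 790 higher. Endothelial markers passed in 0 of 20 genes (3 at an unadjusted p under 0.05; 2 by DESeq2, 1 by the likelihood ratio test and 0 by limma-voom), with sums of 43.4 to 144 normalized CPM in wild-type and 36.7 to 91.9 in Lmx1a-/- CH. Pericyte markers passed in 0 of 9 (2 unadjusted, 2 by DESeq2), intermediate progenitor markers in 0 of 10 (1 unadjusted, 1 by DESeq2), microglial markers in 0 of 14 (2 unadjusted, 0 by DESeq2) and red blood cell markers in 0 of 9 (6 unadjusted, 4 by DESeq2) in edgeR. The progenitor marker at an unadjusted p under 0.05 was Eomes (Tbr2), at 88.9 ± 23.4 and 62.5 ± 9.45 normalized CPM (SD, n = 5; edgeR FDR 0.129). The study called Tbr2 lower in these samples, and also found it lower by immunostaining and after Lmx1a knockdown. The red blood cell sums nonetheless did not overlap, at 643 to 1489 in wild-type and 268 to 581 in mutants, and the median of the list's log2 fold changes was -0.91. Hbb-y (565 ± 238 and 300 ± 97.1, SD, n = 5) made up much of these sums. It was the 1 gene of 9 whose genotypes did not overlap, and 1 of 9, Alas2, had a higher mean in mutants. In the interneuron list 1 of 14 rose, Dlx5 (log2 fold change 1.81, edgeR FDR 0.021), beside 1.72% of all genes tested. The list's sums were 164 to 278 normalized CPM in wild-type and 320 to 448 in Lmx1a-/- CH. Erbb4, which did not pass (130 ± 46 and 213 ± 34.1, SD, n = 5; edgeR FDR 0.103), made up much of these sums, and the mean log2 level of the list used for the relations overlapped between genotypes (2.00 to 2.97 and 1.93 to 3.99).

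Choroid plexus markers fell in 3 of 13 tested genes, Sulf1, Ttr and Slc4a5, beside 2.29% of all genes tested. DESeq2 called 6 of the 13 and limma-voom 1. The sums were 452 to 1716 normalized CPM in wild-type and 366 to 631 in Lmx1a-/- CH. Sulf1 (837 ± 371 and 288 ± 85.8, SD, n = 5) made up much of these sums. Genes of the CH list had counts in every library, with sums of 2390 to 4544 in wild-type and 2791 to 3942 in Lmx1a-/- CH. The lowest sum, 2390, belonged to wild-type embryo 3, which also had the highest meningeal sum, 1222. In the CH list 6 of 14 genes fell (Lmo2, Wnt2b, Msx1, Bmp7, Wnt9a and Wnt5a) and Lmx1a rose, beside 2.29% and 1.72% of all genes tested. The study had reported Lmo2, Wnt2b and Wnt9a as lower in these same samples, so the count is not independent evidence of direction. In the cortical neuroepithelium list 2 of 10 rose, Hopx and Emx2, and 0 fell, beside 1.72% and 2.29% of all genes tested.

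Beyond the 3 members, few genes of the chemokine system were measurable in CH and few passed the threshold. Of 34 other chemokine ligands, 12 were tested, 27 averaged under 1 normalized CPM and 8 had no count in any library (Ccl1, Ccl8, Ccl19, Ccl20, Ccl22, Cxcl2, Cxcl9 and Xcl1). Of the 12, 1 fell and 0 rose in edgeR, beside 2.29% and 1.72% of all genes tested, and the median log2 fold change was 0.0049. DESeq2 called 1 of them, the likelihood ratio test 2 and limma-voom 0. At an unadjusted p under 0.05, 5 of the 12 passed, where 16.4% of all genes tested did. Ppbp, a platelet chemokine, fell (log2 fold change -4.47, edgeR FDR 0.0514). Its level rested on wild-type embryos 1 and 5, at 10.9 and 8.35 normalized CPM, with the other wild-type embryos at 0.451 to 0.82 and mutants at 0 to 0.598, and without wild-type embryo 1 or any of 3 mutants it did not pass.

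Ccl3, a macrophage chemokine, had the next smallest p of the list at 0.116 ± 0.106 in wild-type and 0.797 ± 0.667 normalized CPM in Lmx1a-/- CH (SD, n = 5; edgeR FDR 0.139). Cxcl14 was at 28.2 ± 34.9 and 7.42 ± 6.75 normalized CPM (edgeR FDR 0.27) and Ccl25 at 23.2 ± 2.29 and 24.5 ± 2.21 (FDR 0.767), both named after their values were seen. A value of 89.9 in wild-type embryo 4 carried most of the wild-type mean of Cxcl14. Cxcl11, another ligand of Ackr3, did not reach the minimum count for testing.

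Of 21 other chemokine receptors 8 were tested, and 0 passed (0 at an unadjusted p under 0.05, and 0 by DESeq2). The smallest p values of the list belonged to Ackr4, a scavenger of other chemokines, at 1.18 ± 0.317 and 1.54 ± 0.702 normalized CPM, and Cx3cr1, a microglial receptor, at 3.29 ± 1.29 and 3.96 ± 1.14 (SD, n = 5 each). Summed, the 21 receptors gave 11.1 to 20.5 normalized CPM per wild-type and 14.2 to 19.8 per Lmx1a-/- library.

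Among 12 other ligands and modifiers of the pathway, 10 were tested, 1 fell and 1 rose, beside 2.29% and 1.72% of all genes tested. Calcrl, the receptor of adrenomedullin, a peptide that Ackr3 also takes up, fell from 13.3 ± 8.45 to 4.55 ± 1.17 normalized CPM (SD, n = 5; log2 fold change -1.55, edgeR FDR 0.0356). All 5 mutants (2.99 to 6.09) lay below the lowest wild-type embryo (7.21), and 4.44% of all genes tested likewise separated the genotypes. Calcrl passed whichever single library was left out. With the Xist, choroid plexus or CR cell covariate, fits that left few calls over all genes, 0 genes of the list were called lower. Hmgb1, a chromatin protein that can bind Cxcl12 outside cells, rose from 216 ± 17.9 to 295 ± 59.4 (log2 fold change 0.45, edgeR FDR 0.0825), a call that 7 of 10 libraries each decided. Dpp4, the protease that inactivates Cxcl12, had 0.704 ± 0.897 and 0.898 ± 0.343 normalized CPM (edgeR FDR 0.876), and Mif, an alternative ligand of Cxcr4, 146 ± 25.2 and 135 ± 27.8 (FDR 0.746).

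Among 42 tested transducers of the receptors, G proteins, arrestins, receptor kinases and the GTPases and kinases after them, 2 fell and 0 rose. That is near the 4.02% called over all genes, and the median log2 fold change was -0.073. DESeq2 called 5 of the 42, and 13 passed at an unadjusted p under 0.05, where 16.4% of all genes tested did. The genotypes did not overlap in 4 of the 42, beside 4.44% of all genes tested. Without single libraries, 0 to 3 fell and 0 to 3 rose. Src, a kinase activated after Cxcr4, fell from 25.5 ± 3.06 to 18.3 ± 1.79 normalized CPM (SD, n = 5; log2 fold change -0.48, edgeR FDR 0.053), with all mutants (15.3 to 19.9) below all wild-type embryos (22.1 to 28.1). Rhoa, a GTPase of cell contraction and migration, fell from 115 ± 7.36 to 92.2 ± 10.3 (log2 fold change -0.32, edgeR FDR 0.077), with the highest mutant, at 110, within the wild-type range of 103 to 121. Leaving out single libraries ended the Src call for 2 of 10 and the Rhoa call for 8 of 10. The arrestins that bind Ackr3 did not pass, Arrb1 at 23.3 ± 2.86 and 21.6 ± 4.94 (FDR 0.778) and Arrb2 at 14.1 ± 2.85 and 15.3 ± 1.54 normalized CPM (FDR 0.765), nor did the inhibitory G protein Gnai2 at 290 ± 33.9 and 254 ± 45 (edgeR FDR 0.483).

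**Figure D4:**
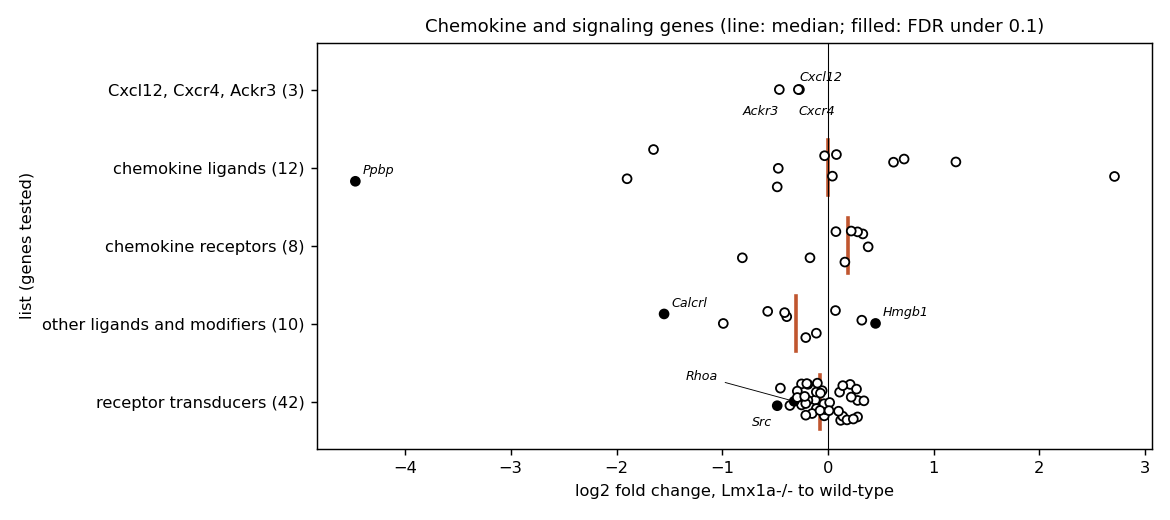
Log2 fold change from wild-type to Lmx1a-/- CH (x axis) of the 3 members and of the tested genes of 4 chemokine and signaling lists (rows, points spread vertically for sight), with filled points for an edgeR FDR under 0.1 and a line at each list's median. The members lie at -0.27, -0.28 and -0.46 and are open, and 5 named genes of the lists are filled.

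The genes whose embryo-to-embryo pattern was most like each member were taken by Pearson's r of centered log2 levels over the 10 libraries among the 11549 genes above. For Cxcl12 they were Arpc3 (0.956), a subunit of the actin-nucleating Arp2/3 complex, Ube2f (0.939), Col1a2 (0.933), Ntn1 (0.932), which encodes the guidance cue netrin, and Anxa6 (0.930), with 1 meningeal list gene among these 5. For Cxcr4 they were Tvp23a (0.975), Rrp7a (0.961), Tubgcp4 (0.960), Susd4 (0.932) and Asap3 (0.924). For Ackr3 they were Serpinb6a (0.936), Sumf2 (0.929), Gja1 (0.925), a gap junction protein, Rab27b (0.922) and Pde3a (0.921). Of these 15 genes, 1 passed the threshold between genotypes, Rab27b (log2 fold change -1.36, edgeR FDR 0.066), beside 4.02% of all genes tested. With 10 libraries and 11549 genes, values of this size are a description of likeness.

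**Figure D5:**
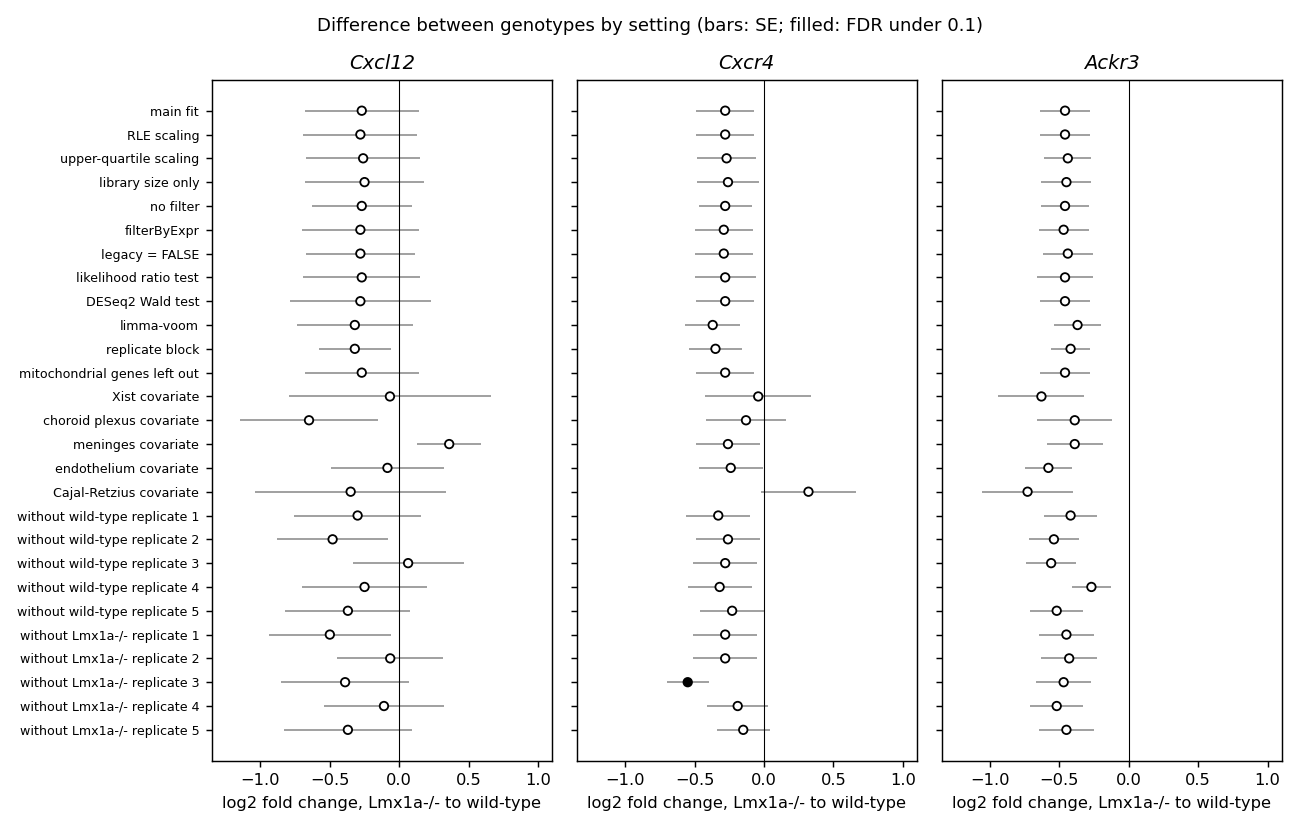
Log2 fold change (x axis, bars for the SE) of each of the 3 genes under every setting of the fit (rows), with filled points for an FDR under 0.1. Ackr3 stays below 0 throughout, from -0.73 to -0.27, Cxcl12 crosses to 0.36 with the meningeal covariate, and the 1 filled point is Cxcr4 without Lmx1a-/- embryo 3 (-0.55).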

How the data were processed

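Per the labels, paired-end reads from laser-captured CH were trimmed with Trimmomatic, aligned to GRCm38 with STAR 2.7.1a and counted with HTSeq 0.11.2. The deposited values are these read counts per gene, with no scaling by the authors. Of 52508 rows, 281 exact repeats were dropped. The strand setting was not given in the sources used here, and SMARTER libraries were amplified, so counts are not molecules. Symbols and positions are those of GENCODE M21, counted from 1.

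Genes reaching 10 counts in 3 or more libraries were compared with edgeR 4.0.16 in R 4.3.3 (TMM scaling, trended dispersion, quasi-likelihood test with legacy = TRUE, all 10 libraries, no covariate), with Benjamini-Hochberg FDR over all genes and 0.1 as threshold, as the study's methods set it. The study's methods do not name which edgeR test was used. At the same threshold the study reported more lower and more higher genes than are called here, so single calls can differ from the study's. The SE is the fold change over the square root of F. The procedure was tested on simulated data. Ratios used counts plus 0.5 and an exact permutation test. Relations used log2(normalized CPM + 0.25) and all 14400 orders within genotypes. DESeq2 1.42.0 and limma 3.58.1 were alternatives. Embryo numbers are from the titles.

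The members and lists were chosen with earlier results of these data known. The genes named are the members, Lmx1a, sex-linked genes, list members past the threshold (at most 6, or the 2 with the smallest p), the 5 most alike genes per member, and genes whose lack of a call is stated for their role.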

Additional observations from a re-analysis of the deposited data

Results flagged for a closer look

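Of 42 groups of 5 libraries examined for a library far from the others (gap over range above 0.71), 3 stood out, where chance alone gives about 1 in 20. The summed chemokine ligands of wild-type embryo 4 were 137 normalized CPM against 59.8 to 69.9 in the other wild-type embryos, and Cxcl14 made 89.9 of the 137. The summed chemokine receptors, members not included, of Lmx1a-/- embryo 3, which also had the highest Cxcr4, were 19.8 against 14.2 to 15.7. The summed red blood cell markers of wild-type embryo 1 were 1489 against 643 to 788, in the library that also had the highest Ppbp. None of the members' own levels was flagged in this way.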

How the results depend on the processing

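Ackr3 stayed below 0 and short of the threshold in all 27 alternative settings (FDR 0.106 to 0.697), and without single libraries its log2 fold change was -0.56 to -0.27. Cxcl12 never passed. It turned to 0.36 with the meningeal covariate, and without single libraries it was -0.50 to 0.064, the latter without wild-type embryo 3. Cxcr4 turned to 0.32 with the CR cell covariate, and without single libraries it was -0.55 to -0.15, passing at -0.55 (FDR 0.0761) without Lmx1a-/- embryo 3. Without single libraries, the log2 ratio difference was -0.28 to 0.37 for Cxcl12 to Cxcr4, -0.14 to 0.45 for Cxcl12 to Ackr3 and -0.21 to 0.14 for Ackr3 to Cxcr4. The covariates' r with genotype was -0.847 (CR cells), -0.827 (Xist), -0.725 (choroid plexus), -0.399 (meninges) and -0.366 (endothelium), and the cause of these moves was not tested. Same-numbered embryos did not deviate together (r of -0.12 to 0.025), and a replicate block gave -0.32 (Cxcl12), -0.35 (Cxcr4), -0.42 (Ackr3), 0.031, 0.092 and -0.061 (the ratios), with no change of call.

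Over all genes, lower and higher calls (497 and 373) became 976 and 790 with DESeq2, 27 and 2 with the Xist covariate, 44 and 51 with choroid plexus, 9 and 2 with CR cells, 251 and 197 at an FDR of 0.05, and as few as 261 and 190 without 1 library (Lmx1a-/- embryo 4). The likelihood ratio test gave 805 lower, and higher calls were 248 with the block and 243 with the meningeal covariate. Levels per kb with the shortest coding transcript, tried after seeing the data, moved to 14.4, 73.5 and 78.2 for Cxcl12, Cxcr4 and Ackr3. With 5 embryos a group, the spread of Cxcl12 limited what could be detected: its interval held a fall to 0.445 and a rise to 1.54 times wild-type.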
